A study of Mus musculus with 12 samples.

Results

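RNA levels of Wnt signalling genes were compared between 4 populations that flow cytometry had separated out of mouse aorta with its perivascular fat, the adipose tissue around the vessel. The 41 genes were taken by symbol from the deposited count table, in which they are 41 of 33352 rows: 10 Wnt ligands, 10 Frizzled receptors, the 2 Lrp co-receptors, 9 secreted antagonists, 7 genes of the R-spondin system and 3 genes used as readouts of the pathway or as its nuclear factors. All mice were wild-type CD-1 males aged 13 weeks, CD-1 being an outbred strain, and the labels give no treatment. The populations are named Progenitor, Intermediate, SMC1 and SMC2 in the labels, SMC standing for smooth muscle cell, and each had 3 libraries. By its title, the series asks from which lineage thermogenic perivascular fat arises. The antibodies and gates of the sort are not given in the sources used here, nor whether a replicate number marks an animal or a pool, so p-values measure the spread between these libraries.

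Wnt proteins are lipid-modified secreted glycoproteins. They bind Frizzled receptors, and with the co-receptors Lrp5 and Lrp6 they stabilise beta-catenin, which enters the nucleus and acts with TCF/LEF factors on target genes. Some ligands, Wnt5a and Wnt11 among them, are best known for signalling without beta-catenin. Sfrp proteins, Frzb and Wif1 bind the ligands, Dkk1 binds the Lrp co-receptors, and R-spondins acting through Lgr receptors keep the ubiquitin ligases Znrf3 and Rnf43 from removing Frizzled from the membrane. Beta-catenin signalling is known to hold back adipocyte differentiation of mesenchymal cells.

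Depth was 13258631 to 22647175 counts per library. Levels are in CPM, counts relative to the size of the library, with SD over n = 3 libraries, listed in the order of replicates 1 to 3, and every difference below is a log2 ratio of 2 populations with its standard error. Calls were made below an adjusted p of 0.05, from the quasi-likelihood test of edgeR adjusted by Benjamini and Hochberg's method over the 19016 genes tested. The 10 fibroblast markers examined, Pdgfra and Dcn among them, summed to 119978 to 141549 CPM in Progenitor libraries and 91451 to 107617 in those of Intermediate, but to 7321 to 10537 in SMC1 and 3323 to 4234 in SMC2. The 10 smooth muscle markers, Acta2 and Myh11 among them, summed to 31849.9 to 38017 CPM in SMC1 and 22032 to 31201 in SMC2, and stayed between 286 and 706 in the stromal populations, as Progenitor and Intermediate are called below. In these bulk libraries, fewer cells of a type and less RNA per cell cannot be told apart. SMC2 replicate 3 had the lowest depth and yet the most genes with a count, and no library was left out of the reported values.

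All 41 genes had enough counts to be tested, and the populations differed in which member of each role was abundant. Of the 41, 37 were called in at least 1 of the 6 pairwise comparisons, beside 74.2% of all genes tested, and 6 were called in all 6, beside 2.79% of all genes. Those 6 were Wnt5a, Wnt11, Fzd6, Fzd8, Sfrp2 and Frzb. Wnt5a and Wnt11 kept all 6 calls under each other scaling, filter, test and block and without each library in turn. The others each lost a call when a library was left out, the largest adjusted p being 0.172 for Fzd6 and 0.0889 for Fzd8 in SMC2 minus Intermediate (both without Intermediate replicate 2), 0.133 for Sfrp2 in SMC1 minus Progenitor (without Progenitor replicate 2) and 0.129 for Frzb in SMC2 minus Progenitor (without Progenitor replicate 3). The 4 without any call were Axin2, Lef1, Lgr5 and Rnf43. The highest mean was in Progenitor for 12 members, in Intermediate for 12, in SMC1 for 10 and in SMC2 for 7. The 6 comparisons share their groups, so they are not independent of each other.

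**Figure D1:**
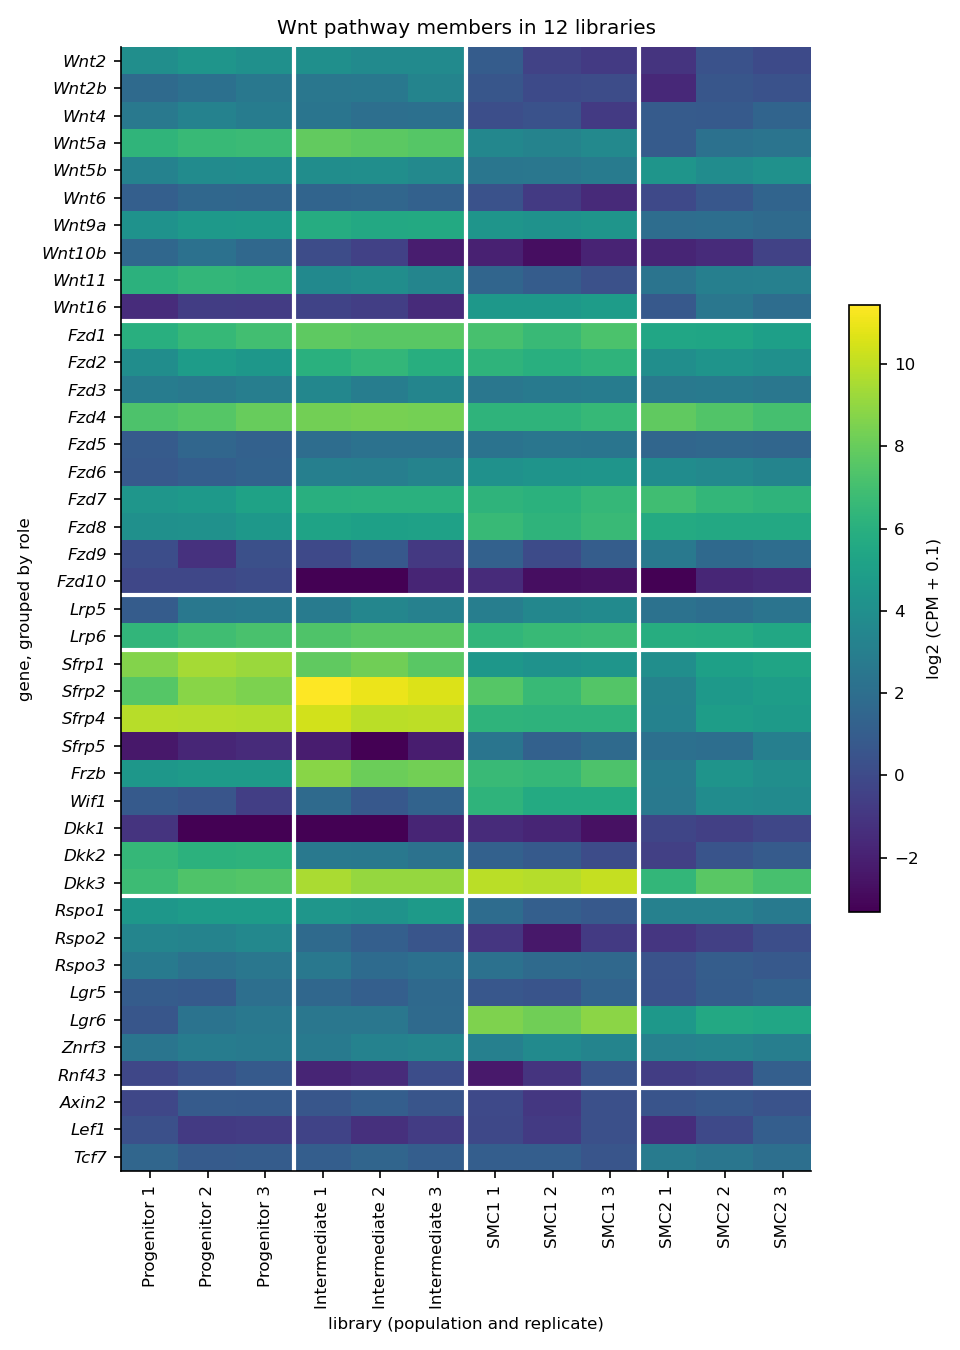
Level of the 41 members in each of the 12 libraries, on a log2 CPM scale with genes in rows ordered by role and libraries in columns ordered by population. Wnt11 and Dkk2 stand out in the Progenitor columns, Sfrp2 and Frzb in Intermediate, and Lgr6 and Wif1 in SMC1.

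Intermediate differed from Progenitor at 20 members, 14 higher and 6 lower, where 22.2% of all genes were called (12.7% higher and 9.46% lower). SMC1 was higher than Progenitor at 13 members and lower at 16, where 48.3% of all genes were called (25.3% higher and 23.1% lower). SMC2 was higher than SMC1 at 8 members and lower at 17, where 34.6% of all genes were called (16.5% higher and 18.1% lower). SMC2 was higher than Progenitor at 10 and lower at 18, with 44.8% of all genes called (23.1% higher and 21.7% lower). Against Intermediate, SMC1 was higher at 7 and lower at 20, with 41.6% of all genes called (19.7% higher and 21.9% lower). SMC2 was higher than Intermediate at 10 and lower at 21, with 44.6% called (21.4% higher and 23.2% lower). The latter count of 10 fell to 6 without Intermediate replicate 2. The mean of both smooth muscle populations was higher than the mean of both stromal ones at 8 members and lower at 21, with 51.8% of all genes called (26.4% higher and 25.5% lower). With upper-quartile scaling in place of TMM, the share of higher among all called genes went from 57.3% to 39.2% in Intermediate minus Progenitor. It went from 52.3% to 41.3% in SMC1 minus Progenitor, and the members gave 12 higher and 6 lower, and 12 higher and 19 lower. In Intermediate minus Progenitor the share over all genes was 49.8% with median-of-ratios factors and 44.5% in a fit of these groups alone. It was 45.3% to 46.8% when an SMC1 or SMC2 library was left out, and 56.6% to 60.4% when a Progenitor or Intermediate library was. The median size of the log2 difference over the members ran from 0.90 in Intermediate minus Progenitor to 2.003 in SMC1 minus Progenitor, where the medians over all genes were 0.43 and 0.70.

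**Figure D2:**
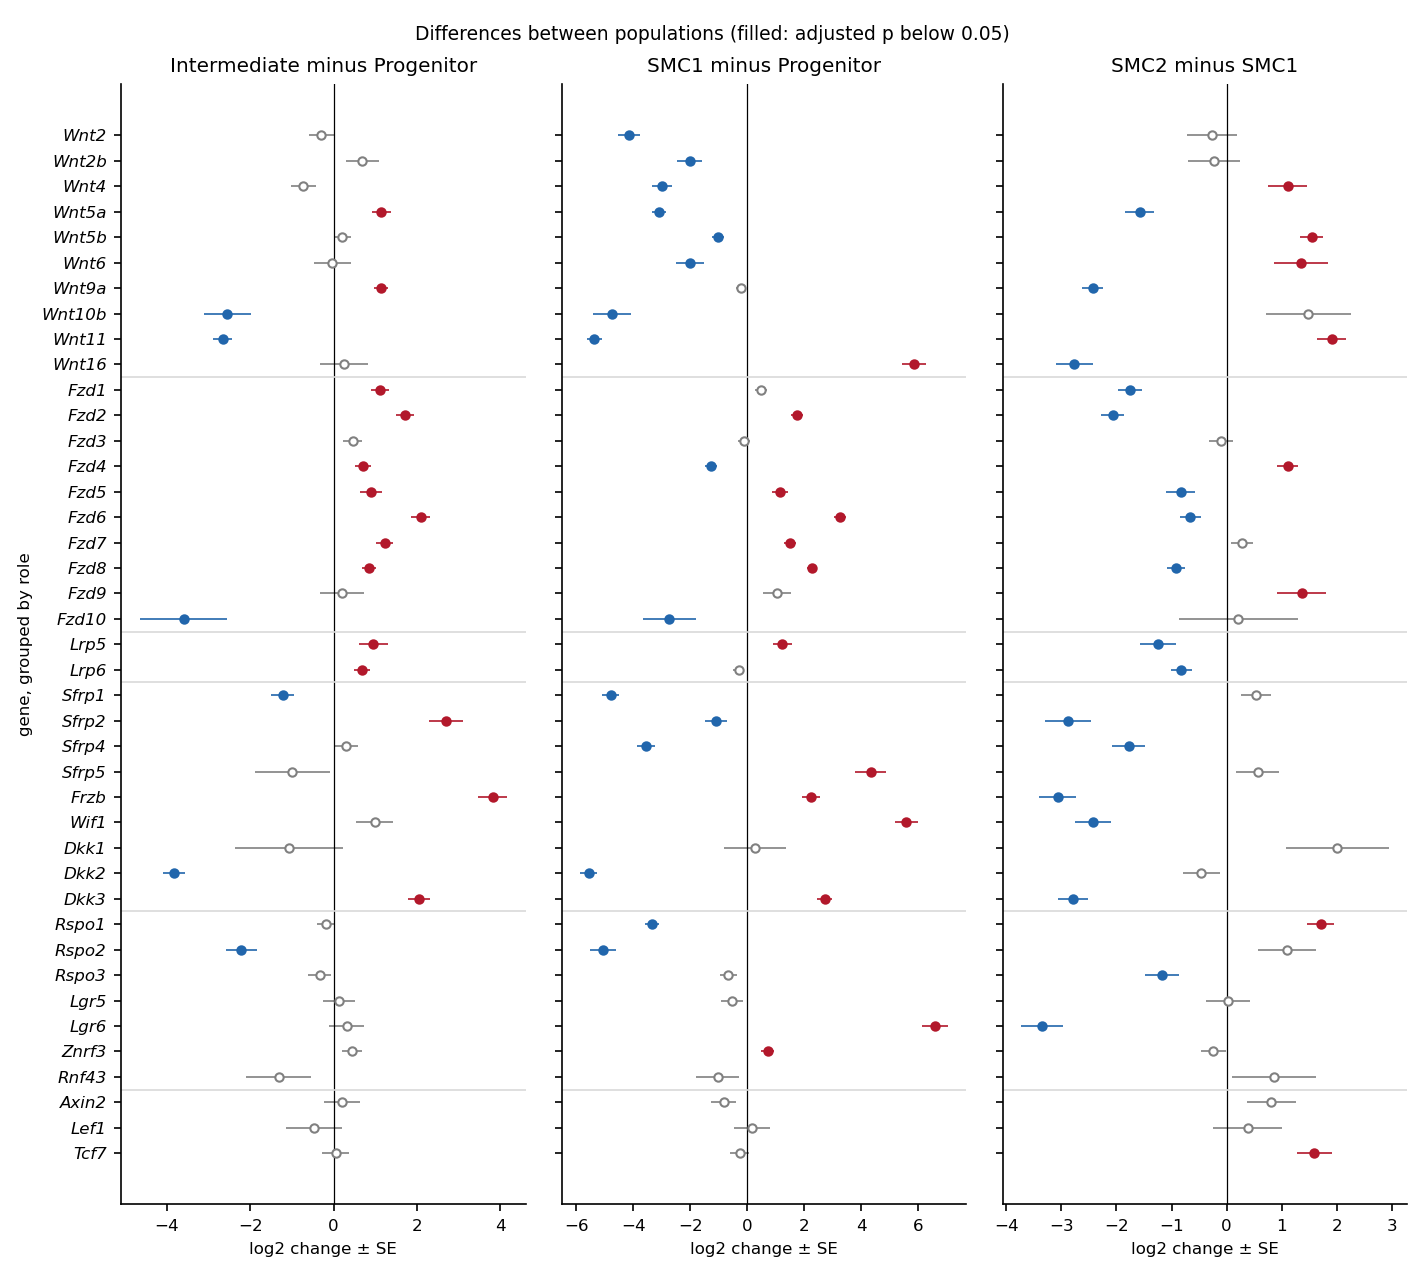
Log2 difference of each member in 3 comparisons, with bars of 1 standard error and members grouped by role; filled points were called. Ligands lie mostly below 0 in SMC1 minus Progenitor, with Wnt16 at 5.86 the exception, and Frizzled receptors mostly above 0 in Intermediate minus Progenitor.

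Promoter sequence is shown for 6 members whose levels set 1 population apart: Wnt11 and Dkk2 (highest in Progenitor), Sfrp2 and Frzb (Intermediate), and Wif1 and Lgr6 (SMC1). RefSeq windows on GRCm38.p6 were found for 27 of the 41 members, 35 windows in all, and the 250 bases before the RefSeq start were searched. In the GENCODE M21 annotation, used here for exon lengths, the Frzb gene reaches chr2:80447625 and the Wif1 gene begins at chr10:121033960. The windows of Frzb and Wif1 thus lie partly inside these genes. The windows lie at chr7:98834862-98835111 (plus strand) for the first of the Wnt11 windows, chr3:132085042-132085291 (plus strand) for Dkk2, chr3:83766071-83766320 (plus strand) for Sfrp2, chr2:80447397-80447646 (minus strand) for Frzb, chr10:121033754-121034003 (plus strand) for Wif1 and chr1:135105277-135105526 (minus strand) for Lgr6. They are written 5′ to 3′ on the strand of the gene, and capitals mark the motif TATAAA, searched on that strand in the last 50 bases, and the TCF/LEF motif CTTTGAT, searched on both strands and found here as its reverse complement.
Wnt11: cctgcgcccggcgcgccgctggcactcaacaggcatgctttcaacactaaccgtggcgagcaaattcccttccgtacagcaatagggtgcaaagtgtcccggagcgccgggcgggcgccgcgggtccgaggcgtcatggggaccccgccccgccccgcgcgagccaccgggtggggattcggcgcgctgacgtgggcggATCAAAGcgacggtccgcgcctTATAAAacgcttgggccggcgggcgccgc
Dkk2: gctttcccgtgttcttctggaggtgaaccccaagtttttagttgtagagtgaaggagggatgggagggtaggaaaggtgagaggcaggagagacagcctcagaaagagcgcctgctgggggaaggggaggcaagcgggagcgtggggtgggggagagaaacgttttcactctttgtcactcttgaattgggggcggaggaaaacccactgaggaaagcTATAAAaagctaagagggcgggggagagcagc
Sfrp2: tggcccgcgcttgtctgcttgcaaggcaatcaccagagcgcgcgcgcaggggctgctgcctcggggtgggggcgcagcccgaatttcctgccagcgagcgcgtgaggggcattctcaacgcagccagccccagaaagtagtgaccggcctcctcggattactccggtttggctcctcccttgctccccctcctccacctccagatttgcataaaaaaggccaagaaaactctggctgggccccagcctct
Frzb: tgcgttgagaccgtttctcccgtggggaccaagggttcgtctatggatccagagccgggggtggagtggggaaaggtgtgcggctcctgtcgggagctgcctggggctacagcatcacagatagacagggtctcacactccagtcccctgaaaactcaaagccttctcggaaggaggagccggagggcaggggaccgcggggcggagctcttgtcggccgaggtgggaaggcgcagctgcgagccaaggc
Wif1: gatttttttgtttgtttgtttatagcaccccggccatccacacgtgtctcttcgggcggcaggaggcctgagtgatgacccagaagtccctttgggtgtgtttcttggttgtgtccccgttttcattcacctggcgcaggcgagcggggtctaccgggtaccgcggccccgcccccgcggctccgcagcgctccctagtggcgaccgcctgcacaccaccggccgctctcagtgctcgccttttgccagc
Lgr6: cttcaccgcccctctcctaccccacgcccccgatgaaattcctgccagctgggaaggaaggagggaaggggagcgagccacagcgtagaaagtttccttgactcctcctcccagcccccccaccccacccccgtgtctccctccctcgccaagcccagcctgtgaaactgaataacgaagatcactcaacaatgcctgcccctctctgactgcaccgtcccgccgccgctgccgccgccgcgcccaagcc
The Wnt11 and Dkk2 windows held TATAAA, the only members' windows to do so, 5.71% of 35 against 2.63% of all 32851 windows. CTTTGAT was in 2 of the 35 windows (5.71%), against 3.21% of all windows, and CTTTGAA in 1 (2.86%), against 4.46%. The CArG box CCWWWWWWGG, W being A or T, was searched as well. It was in 2 of the 35 windows (5.71%), of Lef1 and Tcf7, against 1.47% of all windows. The median GC content was 65.2% over the members' windows and 52.4% over all windows. These are matches of letters in a short window, and they do not show binding.

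The ligands were mostly lower in the smooth muscle populations. In SMC1 minus Progenitor 1 of the 10 ligands was higher and 8 were lower, in SMC1 minus Intermediate 1 and 9, in SMC2 minus Progenitor 2 and 7, and in SMC2 minus Intermediate 1 and 6. Set as the mean of both smooth muscle against the mean of both stromal populations, 1 ligand was higher and 9 were lower, beside 26.4% and 25.5% of all genes. The lower ones included Wnt5b (-0.36, adjusted p = 0.0476), although its highest mean was in SMC2. That call was lost with DESeq2's Wald test (0.0809), with the replicate number as a block (0.0562) and without several single libraries, such as Progenitor replicate 3 (0.130). In the pairwise comparisons just given, 19.7% to 25.3% of all genes were called higher and 21.7% to 23.2% lower. Each population was led by another ligand when levels were set per kilobase of exon, so that genes of different length could be compared. Wnt11 made up 34.6 ± 2.13% of the summed ligand level in Progenitor, Wnt5a 43.8 ± 1.33% in Intermediate, and Wnt5b 52.5 ± 11.95% in SMC2 (SD, n = 3). In SMC1 the lead was shared by Wnt9a with 34.9 ± 0.402% and Wnt16 with 33.4 ± 3.34%, whose order turned when the longest transcript gave the length. The summed level was 56.0 ± 7.53 CPM per kilobase for Progenitor, 61.3 ± 5.002 for Intermediate, 17.1 ± 1.16 for SMC1 and 12.8 ± 1.04 for SMC2.

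**Figure D3:**
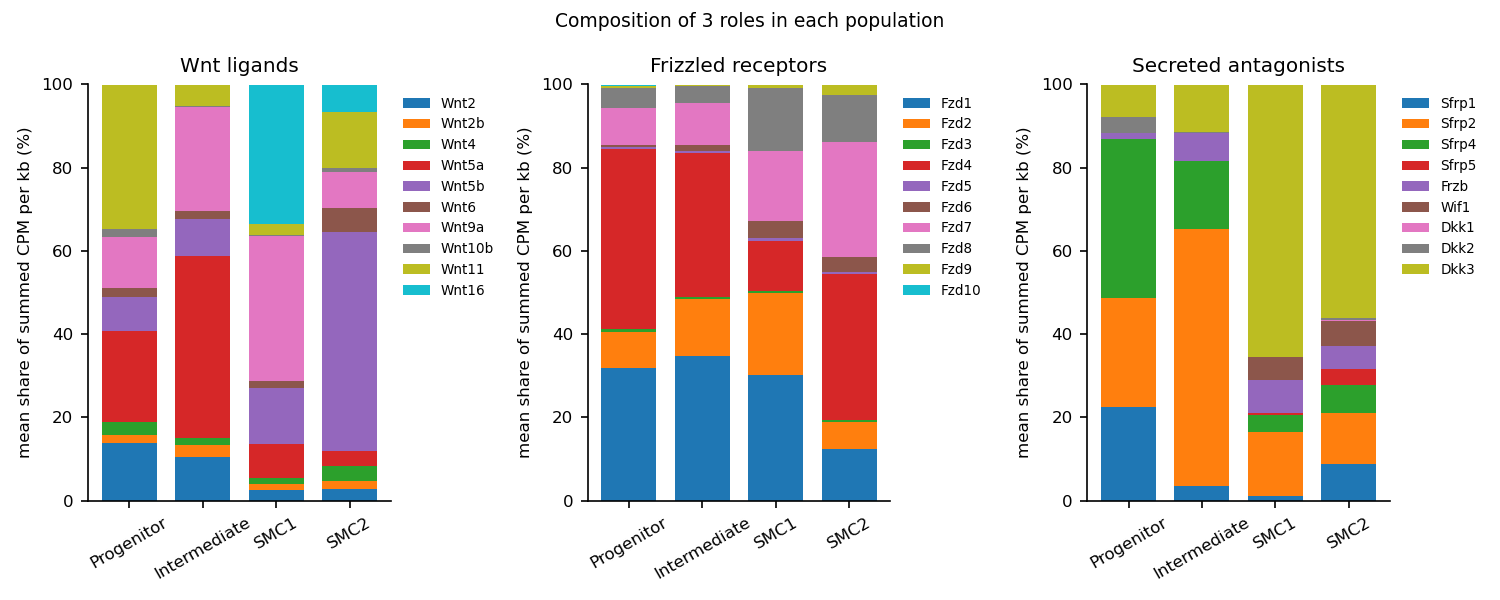
Mean share of each member in the summed level (CPM per kilobase of exon) of its role, in percent, for ligands, Frizzled receptors and antagonists in the 4 populations. The largest ligand segment passes from Wnt11 in Progenitor to Wnt5a in Intermediate and Wnt5b in SMC2, and the largest antagonist segment from Sfrp4 to Sfrp2 and then Dkk3.

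Wnt5a, which signals through Ror2 in its best known role, had 80.7, 98.6 and 105 CPM in Progenitor, 234, 210.4 and 187 in Intermediate, 11.4, 9.78 and 12.2 in SMC1 and 1.79, 4.43 and 5.07 in SMC2. No library of one population overlapped another: Intermediate was highest, Progenitor followed, and SMC2 was lowest. The log2 difference was 1.15 ± 0.22 in Intermediate minus Progenitor (adjusted p = 9.6e-04), -3.09 ± 0.25 in SMC1 minus Progenitor (adjusted p = 2.7e-09) and -1.58 ± 0.26 in SMC2 minus SMC1 (adjusted p = 7.4e-05). Wnt11, known from convergent extension and heart development, had 72.3, 87.9 and 79.3 CPM in Progenitor, 12.6, 15.1 and 10.3 in Intermediate, 2.69, 1.86 and 1.17 in SMC1 and 5.05, 8.13 and 8.53 in SMC2. Progenitor stood above every other library, and Wnt11 was lower in Intermediate by 2.65 ± 0.23 on the log2 scale (adjusted p = 1.2e-07) and in SMC1 by 5.37 ± 0.27 (adjusted p = 3.4e-12). Its SMC2 libraries lay above those of SMC1, with a log2 difference of 1.90 ± 0.26 (adjusted p = 9.1e-06). Reads without strand cannot be assigned in the 4.58% of Wnt5a exon bases and 8.80% of Wnt11 exon bases that other annotated genes overlap.

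Wnt2, a beta-catenin ligand with a role in lung development, had 15.2, 20.6 and 17.0 CPM in Progenitor, 16.3, 13.4 and 13.4 in Intermediate, 1.83, 0.652 and 0.468 in SMC1 and 0.368, 1.23 and 0.895 in SMC2. The stromal libraries overlapped each other and lay far above all smooth muscle libraries. Wnt2 was lower in SMC1 than in Progenitor by 4.14 ± 0.38 (adjusted p = 2.5e-08), and by 5.01 without SMC1 replicate 1, and its log2 difference in Intermediate minus Progenitor was -0.29 ± 0.30 (adjusted p = 0.541). Wnt16, a ligand studied in bone, had 0.273, 0.532 and 0.504 CPM in Progenitor, 0.683, 0.564 and 0.255 in Intermediate, 23.1, 23.6 and 28.1 in SMC1 and 1.61, 5.66 and 3.76 in SMC2. It was the only ligand called higher in SMC1 than in Progenitor, by 5.86 ± 0.42 (adjusted p = 6.8e-10), and the difference in SMC2 minus SMC1 was -2.76 ± 0.33 (adjusted p = 1.6e-06). Mean Wnt16 in the stromal populations was 1.75% and 2.01% of that in SMC1, close to the median of 1.32% and 1.88% that the 10 smooth muscle markers kept there, and the part of smooth muscle RNA in these low values was not tested.

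Wnt9a, a ligand known from joint formation, averaged 23.2 ± 4.49 CPM for Progenitor, 50.9 ± 3.62 for Intermediate, 19.9 ± 1.41 for SMC1 and 3.67 ± 0.282 for SMC2. It was higher in Intermediate than in Progenitor by 1.13 ± 0.17 (adjusted p = 4.5e-05) and lower in SMC2 than in SMC1 by 2.43 ± 0.18 (adjusted p = 3.2e-09), while SMC1 and Progenitor overlapped. Wnt5b, the close relative of Wnt5a, averaged 12.4 ± 2.91 CPM for Progenitor, 14.3 ± 1.72 for Intermediate, 6.09 ± 0.760 for SMC1 and 17.7 ± 3.31 for SMC2. SMC2 was higher than SMC1 by 1.54 ± 0.21 (adjusted p = 7.6e-06), whereas Wnt5a was lower in SMC2 than in SMC1. Wnt5b was called in neither SMC2 minus Intermediate nor Intermediate minus Progenitor, and its Intermediate mean was 80.9% of the SMC2 mean. The small excess of SMC2 over Progenitor, 0.52 ± 0.20 with an adjusted p of 0.0452, lost its call in nearly every alternative. The adjusted p rose to 0.237 without Progenitor replicate 1 and 0.337 without SMC2 replicate 1.

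The other 4 ligands, Wnt2b, Wnt4, Wnt6 and Wnt10b, did not exceed a mean of 7.47 CPM in any population. Wnt10b, known to restrain adipocyte formation through beta-catenin, averaged 3.44 ± 0.823 CPM for Progenitor, 0.583 ± 0.435 for Intermediate, 0.125 ± 0.0688 for SMC1 and 0.362 ± 0.257 for SMC2. It was lower in Intermediate than in Progenitor by 2.54 ± 0.56 (adjusted p = 0.00232), and by 3.14 without Intermediate replicate 1. Wnt4, Wnt6 and Wnt2b were lower in SMC1 than in Progenitor by 2.996 ± 0.34, 2.003 ± 0.49 and 2.01 ± 0.44, and the Wnt6 value became 2.91 without SMC1 replicate 1. In SMC2 minus SMC1 the differences of Wnt4, 1.10 ± 0.35, and Wnt6, 1.35 ± 0.49, passed with adjusted p of 0.0181 and 0.0384. These 2 calls were lost without SMC2 replicate 3 (adjusted p = 0.0789 and 0.213) and without SMC1 replicate 3 (0.103 and 0.157), and that of Wnt6 also without SMC1 replicate 2 (0.125), without SMC2 replicate 2 (0.0622) and with the replicate number as a block (0.0587). Both were also lost in a fit of SMC1 and SMC2 alone (0.0501 and 0.0769), and the Wnt6 difference became 2.18 without SMC1 replicate 1.

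**Figure D4:**
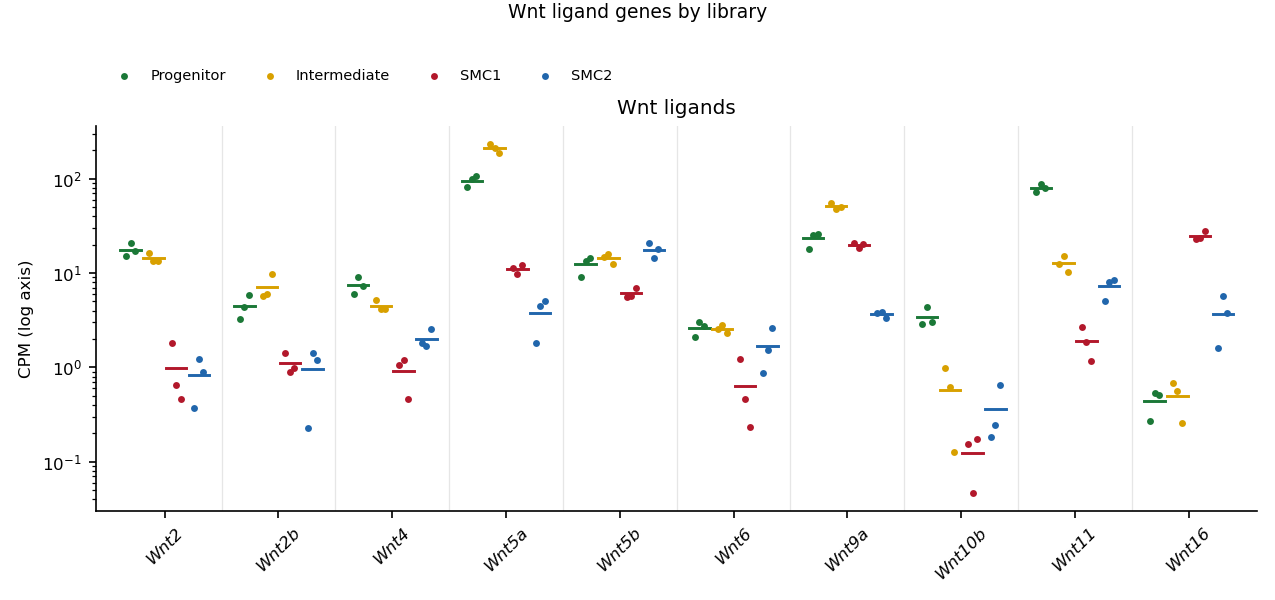
CPM of the 10 Wnt ligands in each library, on a log axis, with 1 point per library coloured by population and a line at each population's mean. Wnt5a reaches 234 CPM in Intermediate, Wnt11 87.9 in Progenitor and Wnt16 28.1 in SMC1.

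Most Frizzled receptors were higher in Intermediate than in Progenitor: 7 of the 10 were called higher, 1 was called lower and 2 were not called. Of all genes, 12.7% were called higher there and 9.46% lower. The summed level went from 69.2 ± 17.3 CPM per kilobase in Progenitor to 139.8 ± 5.31 in Intermediate. SMC1 summed to 102 ± 14.0 and SMC2 to 74.8 ± 14.0. SMC1 was higher than Progenitor at 5 of the 10 and lower at 2, SMC2 was higher than SMC1 at 2 and lower at 5, and against Intermediate SMC1 was higher at 2 and lower at 3. SMC2 was higher than Progenitor at 4 and lower at 2, and against Intermediate higher at 4 and lower at 4. In the comparisons with SMC1 or SMC2, 16.5% to 25.3% of all genes were called higher and 18.1% to 23.2% lower.

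Fzd6, a planar polarity receptor, had 1.64, 2.06 and 2.39 CPM in Progenitor, 8.19, 7.78 and 9.75 in Intermediate, 17.7, 20.02 and 20.2 in SMC1 and 14.2, 12.3 and 10.1 in SMC2. The rank SMC1, SMC2, Intermediate, Progenitor held without overlap, and the log2 difference was 2.09 ± 0.22 in Intermediate minus Progenitor (adjusted p = 1.1e-06) and 3.26 ± 0.22 in SMC1 minus Progenitor (adjusted p = 1.4e-10). The smaller step down from SMC1 to SMC2, -0.66 ± 0.19 with an adjusted p of 0.0104, was not called without SMC2 replicate 3 (0.0643). Fzd8, which pairs with Lrp6 in beta-catenin signalling, had 16.5, 17.8 and 23.6 CPM in Progenitor, 36.9, 32.8 and 34.4 in Intermediate, 97.2, 78.2 and 103 in SMC1 and 52.3, 48.1 and 46.9 in SMC2. Its order was the same, with 2.27 ± 0.17 in SMC1 minus Progenitor (adjusted p = 6.7e-10) and 0.85 ± 0.17 in Intermediate minus Progenitor (adjusted p = 9.1e-04).

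Fzd1, a widely expressed receptor for beta-catenin ligands, had 63.9, 93.5 and 124 CPM in Progenitor, 214, 198 and 198 in Intermediate, 139.5, 101 and 152 in SMC1 and 42.8, 40.7 and 32.2 in SMC2. Intermediate was above all other libraries and SMC2 below all, with 1.12 ± 0.21 in Intermediate minus Progenitor (adjusted p = 6.1e-04) and -1.76 ± 0.21 in SMC2 minus SMC1 (adjusted p = 1.7e-06). Fzd2, a receptor also used by Wnt5a, had 14.7, 28.5 and 21.9 CPM in Progenitor, 65.2, 86.7 and 60.2 in Intermediate, 78.3, 64.3 and 76.1 in SMC1 and 15.7, 19.7 and 16.6 in SMC2. Intermediate and SMC1 overlapped at the upper level and Progenitor and SMC2 at the lower one, with 1.71 ± 0.21 in Intermediate minus Progenitor (adjusted p = 6.3e-06) and -2.07 ± 0.21 in SMC2 minus SMC1 (adjusted p = 1.7e-07).

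Fzd4, which also serves as receptor for the non-Wnt ligand Norrin, averaged 199.9 ± 47.5 CPM for Progenitor, 326 ± 15.8 for Intermediate, 82.6 ± 9.68 for SMC1 and 177 ± 44.2 for SMC2. SMC1 was the lowest population, and SMC2 exceeded it by 1.10 ± 0.20 (adjusted p = 1.7e-04). Per kilobase Fzd4 made up 43.1 ± 2.22% of the Frizzled level in Progenitor, 34.7 ± 0.995% in Intermediate and 35.0 ± 2.16% in SMC2. In SMC1 its share was 12.1 ± 0.983%, and Fzd1 led there with 30.3 ± 2.34%. Fzd1 also had 34.7 ± 2.20% in Intermediate, level with Fzd4. The Intermediate excess of Fzd4 over Progenitor, 0.70 ± 0.20 (adjusted p = 0.0135), was not called without Progenitor replicate 1 (0.0761), Progenitor replicate 2 (0.0505) or Intermediate replicate 2 (0.0524). Fzd7, a receptor of mesenchymal and stem cells, averaged 27.6 ± 7.08 CPM for Progenitor, 64.4 ± 2.15 for Intermediate, 78.3 ± 10.8 for SMC1 and 94.8 ± 23.3 for SMC2. It was higher than in Progenitor in each other population, by 1.22 ± 0.20, 1.51 ± 0.20 and 1.78 ± 0.20 in turn, and made up 27.8 ± 1.78% of the Frizzled level in SMC2.

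The remaining Frizzled genes were low, with means up to 9.74 CPM. Fzd9 was highest in SMC2, with 6.20, 3.25 and 3.82 CPM, and its difference from SMC1, 1.36 ± 0.45 (adjusted p = 0.0234), was not called without SMC1 replicate 2 (0.103) or SMC2 replicate 1 (0.113). Fzd5 was higher in Intermediate than in Progenitor by 0.90 ± 0.27 (adjusted p = 0.0214), a call that 6 of the 12 omissions of a library ended, with adjusted p up to 0.105 without Progenitor replicate 1, and 17.8% of its exon bases are shared with other genes. Fzd10 stayed under 1 CPM in every library. It was the Frizzled gene called lower in Intermediate than in Progenitor (adjusted p = 0.0179), and not without Intermediate replicate 2 (0.102), Intermediate replicate 1 (0.0897) or Progenitor replicate 1 (0.0539). Fzd3 averaged 7.09 ± 0.813 CPM for Progenitor, 9.74 ± 2.05 for Intermediate, 6.55 ± 0.875 for SMC1 and 6.08 ± 0.445 for SMC2. It was called in neither Intermediate minus Progenitor nor SMC2 minus SMC1. It was called lower in SMC1 and SMC2 than in Intermediate (adjusted p = 0.0403 and 0.0156), and in neither without Intermediate replicate 1 (0.170 and 0.0734).

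Both Lrp co-receptors were lower in SMC2 than in SMC1 and Intermediate. Lrp6 had 85.2, 120.4 and 148 CPM in Progenitor, 163, 205 and 200.1 in Intermediate, 84.5, 96.7 and 106 in SMC1 and 59.1, 56.3 and 46.8 in SMC2. Intermediate lay above all other libraries and SMC2 below all others. The difference was -0.82 ± 0.19 in SMC2 minus SMC1 (adjusted p = 0.00182) and 0.68 ± 0.19 in Intermediate minus Progenitor (adjusted p = 0.0122), and the latter was not called without Progenitor replicate 1 (0.0757) or Intermediate replicate 2 (0.0548). Lrp5, known from bone mass, had 1.86, 5.79 and 6.30 CPM in Progenitor, 6.83, 10.9 and 8.99 in Intermediate, 7.83, 11.3 and 13.3 in SMC1 and 4.60, 3.99 and 5.07 in SMC2. SMC2 was lower than SMC1 by 1.25 ± 0.33 (adjusted p = 0.00636) without overlap, and its libraries lay within the range of Progenitor. The Lrp5 difference in SMC2 minus Intermediate, -0.97 ± 0.33 (adjusted p = 0.0239), was not called without Intermediate replicate 2 (0.0921) or SMC2 replicate 2 (0.0760). Progenitor replicate 1 was low for both co-receptors, and the Lrp5 call in Intermediate minus Progenitor (0.96 ± 0.34, adjusted p = 0.0483) was lost without it (0.168) and without 8 of the other 11 libraries in turn.

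Secreted antagonists had the largest summed level of the 6 roles in Progenitor, Intermediate and SMC1, while in SMC2 their sum and that of the Frizzled receptors did not differ beyond the spread between libraries. The sum was 571 ± 94.2 CPM per kilobase for Progenitor, 1611 ± 377 for Intermediate, 453 ± 62.4 for SMC1 and 77.1 ± 30.4 for SMC2. In Intermediate minus Progenitor 3 of the 9 were higher and 2 lower, in SMC1 minus Progenitor 4 and 4, and in SMC2 minus SMC1 5 were lower and the other 4 were not called. SMC2 minus Intermediate gave 3 higher and 6 lower. The higher ones included Dkk1, a gene with few counts. Its call (adjusted p = 0.0188) was lost without Intermediate replicate 1 (0.0904) or Intermediate replicate 2 (0.0967). Of all genes, 12.7% to 25.3% were called higher and 9.46% to 23.2% lower in these comparisons. Sfrp4 made up 38.1 ± 8.13% of the antagonist level in Progenitor, Sfrp2 61.6 ± 3.07% in Intermediate, and Dkk3 65.4 ± 3.51% in SMC1 and 56.1 ± 6.15% in SMC2.

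Sfrp2, a secreted Frizzled-related protein of mesenchymal cells, had 184, 444 and 366 CPM in Progenitor, 2756, 2056 and 1628 in Intermediate, 183, 98.9 and 179.6 in SMC1 and 9.51, 24.3 and 29.2 in SMC2. The lowest Intermediate library had 1628 CPM and the highest SMC2 library 29.2, while the lowest Progenitor and the highest SMC1 library lay side by side. Its difference was 2.69 ± 0.41 in Intermediate minus Progenitor (adjusted p = 2.1e-04) and -2.87 ± 0.41 in SMC2 minus SMC1 (adjusted p = 5.8e-05). The difference in SMC1 minus Progenitor, -1.11 ± 0.39 with an adjusted p of 0.0277, was not called without Progenitor replicate 2 (0.133), Progenitor replicate 3 (0.0893) or SMC1 replicate 2 (0.0902). An overlapping gene shares 16.1% of Sfrp2 exon bases. Sfrp4, a relative linked to phosphate balance and bone, had 927, 883 and 853 CPM in Progenitor, 1381, 943 and 980.4 in Intermediate, 77.5, 73.6 and 75.1 in SMC1 and 9.33, 30.1 and 26.5 in SMC2. The Intermediate libraries lay just above those of Progenitor (log2 difference 0.31 ± 0.28, adjusted p = 0.473), and both were far above SMC1, which was above SMC2. Sfrp4 was lower in SMC1 than in Progenitor by 3.56 ± 0.31 (adjusted p = 2.5e-08) and lower in SMC2 than in SMC1 by 1.78 ± 0.30 (adjusted p = 1.2e-04).

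Sfrp1, another secreted Frizzled-related protein, averaged 569 ± 142 CPM for Progenitor, 244 ± 48.9 for Intermediate, 20.5 ± 2.38 for SMC1 and 29.7 ± 12.4 for SMC2. Unlike Sfrp2, Sfrp1 was lower in Intermediate than in Progenitor, by 1.22 ± 0.27 (adjusted p = 0.00287). Its difference in SMC2 minus SMC1, 0.54 ± 0.27 (adjusted p = 0.139), was called without SMC2 replicate 1 (0.00664). Frzb, also called Sfrp3 and known from cartilage, averaged 24.8 ± 2.47 CPM for Progenitor, 349 ± 88.1 for Intermediate, 117 ± 36.1 for SMC1 and 14.0 ± 7.01 for SMC2, with the SMC1 libraries between 91.8 and 158 CPM. That SMC1 level was 33.4% of the Intermediate one. The 10 fibroblast markers reached 0.931% to 17.1% in SMC1, with a median of 2.95%, of their higher stromal mean. By the same measure SMC1 reached 7.17% for Sfrp2, 6.85% for Sfrp4 and 3.60% for Sfrp1. The part of fibroblast RNA in these SMC1 levels was not tested.

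Dkk2, a Dickkopf protein that binds Lrp6, had 92.2, 70.2 and 74.5 CPM in Progenitor, 6.08, 5.89 and 4.65 in Intermediate, 2.29, 1.68 and 0.994 in SMC1 and 0.597, 1.33 and 1.79 in SMC2. The lowest Progenitor library had 70.2 CPM and the highest of all others 6.08, and Dkk2 was lower by 3.83 ± 0.26 in Intermediate (adjusted p = 6.3e-09) and by 5.56 ± 0.29 in SMC1 (adjusted p = 7.9e-12). Dkk3, a divergent Dickkopf relative, averaged 150.2 ± 35.8 CPM for Progenitor, 618 ± 123 for Intermediate, 993 ± 109 for SMC1 and 144 ± 58.5 for SMC2. Against Progenitor, Dkk3 ran opposite to Dkk2 in Intermediate and SMC1, where it was higher by 2.04 ± 0.26 (adjusted p = 1.4e-05) and 2.72 ± 0.27 (adjusted p = 6.4e-08). Both genes had their lowest mean in SMC2. Dkk1 was listed at 0 in 4 of the 6 stromal libraries and stayed below 1 CPM in all 12.

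Wif1, Wnt inhibitory factor, had 1.68, 1.397 and 0.567 CPM in Progenitor, 3.35, 1.57 and 2.49 in Intermediate, 77.8, 51.5 and 52.2 in SMC1 and 6.07, 14.6 and 13.2 in SMC2. SMC1 was above SMC2, and SMC2 above both stromal populations, without overlap. The difference was 5.59 ± 0.40 in SMC1 minus Progenitor (adjusted p = 4.5e-09) and -2.42 ± 0.32 in SMC2 minus SMC1 (adjusted p = 1.5e-05). Sfrp5, known as an adipokine, was the other antagonist that was higher in both smooth muscle populations, averaging 0.181 ± 0.0821 CPM for Progenitor, 0.0839 ± 0.0727 for Intermediate, 3.61 ± 1.48 for SMC1 and 5.34 ± 2.31 for SMC2, with 4.33 ± 0.55 in SMC1 minus Progenitor (adjusted p = 1.4e-06) and 0.56 ± 0.39 in SMC2 minus SMC1 (adjusted p = 0.279). The 10 adipocyte markers summed to 1110.1 to 1279 CPM in SMC2 and at most 56.4 in any other population, and markers of cartilage and tendon (8 genes, 275 to 482 CPM) and of mesothelium (12 genes, 241 to 561 CPM) were highest in Intermediate. Their part in the differences of the antagonists was not tested.

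**Figure D5:**
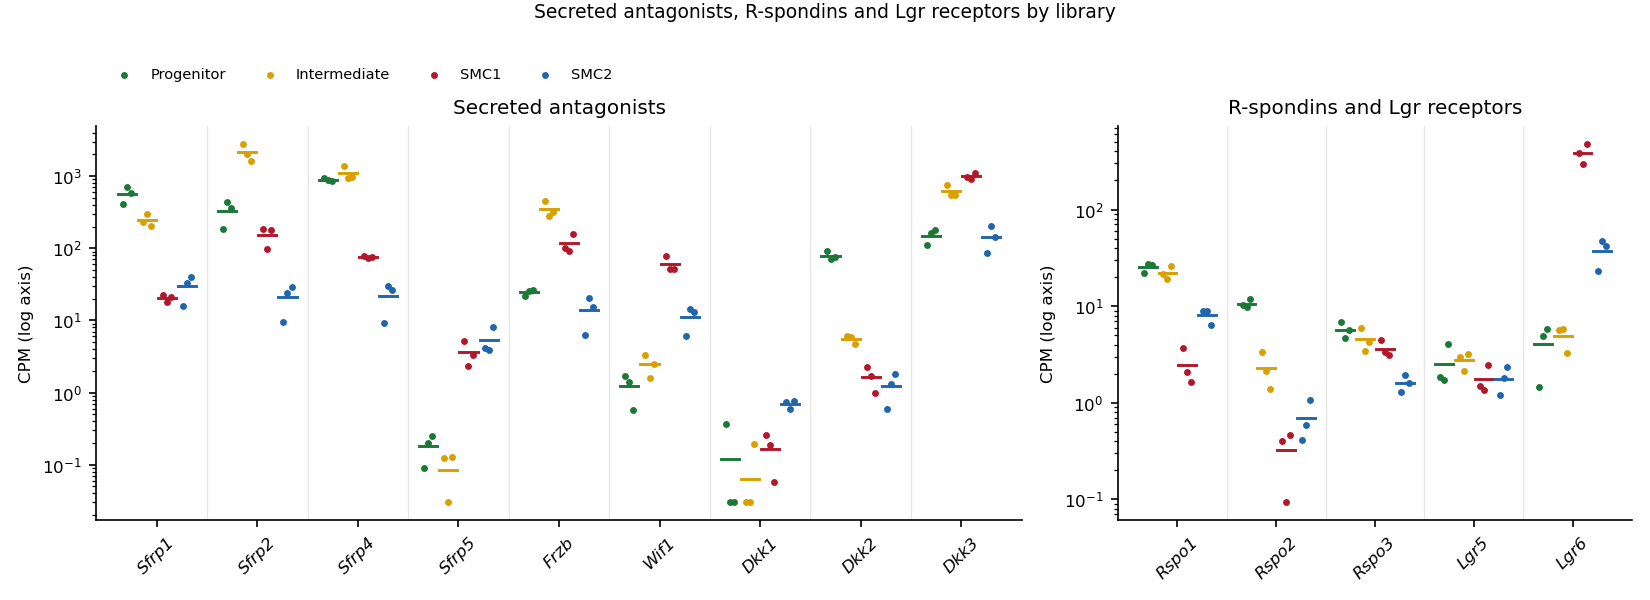
CPM of the 9 secreted antagonists and, in the other panel, of Rspo1, Rspo2, Rspo3, Lgr5 and Lgr6 in each library, on log axes. Each library is 1 point coloured by population, with a line at each population's mean, and a library at 0 is drawn at the foot of the axis. Sfrp2 runs from 9.51 CPM in an SMC2 library to 2756 in an Intermediate library, and Dkk2 is at 70.2 CPM or more in the Progenitor libraries and at 6.08 or less in the others.

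In the R-spondin system, Lgr6 was highest in SMC1, and Rspo1, Rspo2 and Rspo3 had their highest means in Progenitor. Lgr6, an R-spondin receptor, had 1.46, 4.86 and 5.86 CPM in Progenitor, 5.65, 5.77 and 3.31 in Intermediate, 380.0, 297 and 472 in SMC1 and 23.3, 47.8 and 41.6 in SMC2. SMC1 was above SMC2 and SMC2 above the stromal libraries, which overlapped, and the difference was 6.60 ± 0.45 in SMC1 minus Progenitor (adjusted p = 9.3e-09) and -3.35 ± 0.38 in SMC2 minus SMC1 (adjusted p = 5.0e-06). The stromal means were 1.06% and 1.28% of the SMC1 mean, within the span the smooth muscle markers kept there. The part of smooth muscle RNA in these stromal means was not tested. Rspo1, a secreted R-spondin, had 22.1, 27.0 and 26.8 CPM in Progenitor, 21.5, 19.3 and 26.0 in Intermediate, 3.66, 2.09 and 1.64 in SMC1 and 8.91, 8.82 and 6.44 in SMC2. Both stromal populations were above both smooth muscle ones, and within the latter SMC2 was higher than SMC1 by 1.71 ± 0.25 (adjusted p = 1.6e-05). The SMC2 mean was 31.8% of the Progenitor mean. In SMC2 the fibroblast markers reached at most 4.98% of their higher stromal mean, and the part of fibroblast RNA in the Rspo1 level was not tested. Rspo2 had 10.2, 9.78 and 11.9 CPM in Progenitor, 3.35, 2.13 and 1.402 in Intermediate, 0.407, 0.0931 and 0.468 in SMC1 and 0.414, 0.591 and 1.07 in SMC2. It fell from Progenitor to Intermediate by 2.21 ± 0.37 (adjusted p = 2.1e-04) and to SMC1 by 5.05 ± 0.46 (adjusted p = 1.2e-08), the only member of the system called in Intermediate minus Progenitor.

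Rspo3, the R-spondin of endothelial and stromal cells, had 6.78, 4.66 and 5.67 CPM in Progenitor, 5.90, 3.45 and 4.27 in Intermediate, 4.42, 3.35 and 3.10 in SMC1 and 1.29, 1.92 and 1.61 in SMC2. SMC2 was below all other libraries, with -1.17 ± 0.30 in SMC2 minus SMC1 (adjusted p = 0.00464). An overlapping gene shares 13.1% of Rspo3 exon bases. Znrf3 averaged 6.37 ± 0.936 CPM for Progenitor, 8.62 ± 2.03 for Intermediate, 10.4 ± 2.31 for SMC1 and 8.80 ± 0.836 for SMC2, and its excess in SMC1 over Progenitor, 0.72 ± 0.23 (adjusted p = 0.0136), was not called without Progenitor replicate 1 (0.0572) or SMC1 replicate 2 (0.141). Rnf43, the partner ligase, ranged from 0.102 to 2.09 CPM and was not called. Its difference in Intermediate minus Progenitor was -1.32 ± 0.78 (adjusted p = 0.246), and with the replicate number as a block it was -1.60 and called (adjusted p = 0.0362). Lgr5, the receptor that marks intestinal stem cells, stayed between 1.19 and 4.03 CPM.

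Of the 3 readout genes, Tcf7 was called in some comparisons and Axin2 and Lef1 in none of the 6. Axin2, a feedback inhibitor and the most general target of beta-catenin, had 0.773, 1.80 and 1.70 CPM in Progenitor, 1.43, 2.01 and 1.402 in Intermediate, 0.864, 0.419 and 1.11 in SMC1 and 1.33, 1.58 and 1.25 in SMC2. SMC1 lay below Intermediate and SMC2, Progenitor overlapped with all, and no difference was called: it was 0.20 ± 0.43 in Intermediate minus Progenitor (adjusted p = 0.788), -0.83 ± 0.45 in SMC1 minus Progenitor (adjusted p = 0.134) and 0.81 ± 0.44 in SMC2 minus SMC1 (adjusted p = 0.165). With 9 to 32 counts per library the errors are wide, and equal levels are not shown. Lef1 ranged from 0.276 to 2.03 CPM, and 13.7% of its exon bases are shared with another gene. Tcf7, a TCF factor also high in T cells, had 2.86, 1.80 and 1.89 CPM in Progenitor, 2.05, 2.76 and 2.04 in Intermediate, 2.03, 2.05 and 1.403 in SMC1 and 6.98, 5.47 and 4.12 in SMC2. SMC2 was above every other library, by 1.59 ± 0.32 over SMC1 (adjusted p = 4.5e-04) and 1.33 ± 0.31 over Progenitor (adjusted p = 0.00147). The 10 T cell markers summed to 15.2 to 16.8 CPM in SMC2 and 9.36 to 29.3 CPM in the other libraries.

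Beyond the 41 members, 92 other genes of the pathway were set out in 7 lists, of which 77 could be tested. Among 10 genes of Wnt processing and secretion, 8 were tested, and SMC1 minus Progenitor gave 6 higher, the other 2 not being called. Of all genes, 25.3% were called higher there. Trabd2b, a membrane protease that inactivates Wnts, averaged 18.4 ± 3.10 CPM for Progenitor, 5.83 ± 2.05 for Intermediate, 66.2 ± 19.0 for SMC1 and 29.3 ± 2.52 for SMC2. The sulfatases that trim heparan sulfate, on which Wnts are held, went down in SMC2 relative to SMC1, Sulf1 by 2.46 ± 0.20 (adjusted p = 7.2e-09) and Sulf2 by 2.10 ± 0.24 (adjusted p = 1.0e-06).

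Of 14 further antagonists and Lrp regulators 11 were tested, and SMC1 minus Progenitor gave 3 higher and 5 lower, beside 25.3% and 23.1% of all genes. The count of higher ones was thus near the share over all genes. Apcdd1, a membrane inhibitor, was higher in Intermediate than in Progenitor by 1.90 ± 0.19 (adjusted p = 5.7e-07). Tpbg, which dampens Lrp6 signalling, averaged 23.3 ± 1.46 CPM for Progenitor, 23.8 ± 3.99 for Intermediate, 1.23 ± 0.573 for SMC1 and 0.680 ± 0.411 for SMC2. Sost, which encodes the Lrp inhibitor sclerostin, fell from SMC1 to SMC2 by 3.01 ± 0.37 (adjusted p = 1.3e-05), in the same direction as Wif1 and Lgr6.

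Non-canonical receptors and planar polarity genes, 14 of 14 tested, were called higher in Intermediate minus Progenitor at 7 and lower at 1, beside 12.7% and 9.46% of all genes. In SMC1 minus Intermediate they were higher at 1 and lower at 11, beside 19.7% and 21.9% of all genes. Ror2, the Wnt5a co-receptor, averaged 15.7 ± 3.73 CPM for Progenitor, 29.2 ± 2.05 for Intermediate, 1.28 ± 0.183 for SMC1 and 4.99 ± 0.541 for SMC2, and Prickle1, a planar polarity protein, 93.6 ± 14.5 CPM for Progenitor, 187 ± 24.0 for Intermediate, 26.7 ± 4.43 for SMC1 and 29.8 ± 6.38 for SMC2. Both genes were lowest in the smooth muscle populations and highest in Intermediate, as Wnt5a was. Mcc was lower in SMC1 than in Intermediate by 2.71 ± 0.23 (adjusted p = 5.3e-09).

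Of 15 genes of the Dishevelled and destruction complex group, all tested, 6 were higher in Intermediate minus Progenitor and 9 were not called, beside 12.7% of all genes called higher. In SMC1 minus Progenitor 8 were higher and 2 lower, beside 25.3% and 23.1% of all genes. In SMC1 minus Intermediate 3 were called, beside 41.6% of all genes. Ctnnb1, which encodes beta-catenin, averaged 229 ± 37.0 CPM for Progenitor, 391 ± 24.7 for Intermediate, 582 ± 19.0 for SMC1 and 276 ± 41.1 for SMC2, and was higher in SMC1 than in Progenitor by 1.35 ± 0.18 (adjusted p = 2.0e-06). Dvl2 was lower in SMC2 than in SMC1 by 0.97 ± 0.19 and Apc2 was higher by 2.21 ± 0.32 (adjusted p = 5.2e-04 and 1.4e-05). Nuclear partners and repressors, 14 of 14 tested, were higher in SMC1 minus Progenitor at 8 and not called at 6, beside 25.3% of all genes called higher. Pygo1 was higher there by 1.48 ± 0.17, Tle1 by 1.23 ± 0.17 and Tle4 by 0.86 ± 0.19. In Intermediate minus Progenitor 2 of the 14 were called, beside 22.2% of all genes.

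Other transcriptional targets went in both directions: of 14 tested, 7 were higher and 1 lower in Intermediate minus Progenitor, 5 higher and 6 lower in SMC1 minus Progenitor, and 6 higher and 5 lower in SMC2 minus SMC1. The shares of all genes called higher and lower were 12.7% and 9.46%, 25.3% and 23.1%, and 16.5% and 18.1% in turn. Ccn4, a matricellular protein induced by Wnt1, averaged 14.1 ± 3.22 CPM for Progenitor, 106 ± 26.5 for Intermediate, 11.9 ± 2.96 for SMC1 and 5.12 ± 0.342 for SMC2, and was higher in Intermediate than in Progenitor by 2.92 ± 0.22 (adjusted p = 1.7e-08). Dact1, a Dishevelled antagonist, was higher there by 0.87 ± 0.16 (adjusted p = 5.4e-04). Myc, the growth regulator, averaged 289 ± 17.8 CPM for Progenitor, 90.2 ± 22.3 for Intermediate, 31.1 ± 4.97 for SMC1 and 180.1 ± 21.2 for SMC2, and was lower in Intermediate than in Progenitor by 1.68 ± 0.19 (adjusted p = 1.9e-06). The feedback inhibitors Nkd1 and Nkd2, chosen after their values were seen, differed from each other. Nkd1 was higher in SMC2 than in Progenitor by 3.18 ± 0.21 and Nkd2 was lower by 1.20 ± 0.21 (adjusted p = 8.1e-11 and 6.2e-05).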

How the data were processed

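Poly(A) RNA of 12 libraries, 3 from each of 4 sorted populations, was sequenced after SMART-Seq v4 amplification, per the labels' protocols. Strand is not kept by this kit, and reads of overlapping genes on opposite strands cannot be told apart. The authors deposited raw read counts, whole numbers per gene and library, for 33352 genes; the other tables were not used here. Build mm10, DESeq2 1.26.0 and STAR 2.5.2a are listed in the submitters' processing notes, and how reads were counted is not given in the sources used here.

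Members were matched by the deposited symbol. The members and all lists were chosen with earlier results of these data known. Counts passing filterByExpr (19016 genes) were fitted with edgeR 4.0.16 (R 4.3.3) over all 12 libraries with a mean per group, TMM factors and robust dispersions (common biological coefficient of variation 0.206, 8 residual degrees of freedom). Each difference went through edgeR's quasi-likelihood F test (two-sided), and p-values were adjusted by Benjamini-Hochberg over all genes tested, with a threshold of 0.05. Standard errors are the size of the log2 difference over the root of F. CPM values used TMM-scaled library sizes, and levels per kilobase used the union of exons in GENCODE M21 (GRCm38). The code was tested on simulated data.

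Values are given library by library for up to 4 members of a role, those with the widest range of group means on the log2 CPM scale (prior count 2) among those with a highest mean of at least 5 CPM. The other members are given by means, ranges and counts, and of each other list up to 3 genes with the smallest adjusted p are named. The marker lists were fibroblast, smooth muscle, adipocyte, mesothelial, endothelial, leukocyte, T cell, B and plasma cell, Schwann cell, cartilage and tendon, and pericyte.

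No replicates agreed within sampling noise: chi-square over its degrees of freedom was at least 9.31 between any pair within a group. Amplified reads without molecular identifiers are not independent molecules. Replicate numbers were checked for pairing by correlating deviations from group means. For Progenitor and Intermediate the correlations of same-numbered libraries were 0.17, 0.19 and 0.17. For each other pair of populations at least 1 was below 0.1, as for Intermediate and SMC2 with 0.23, -0.005 and 0.35. Libraries with different numbers gave -0.10 to -0.067 for Progenitor and Intermediate, and -0.33 to 0.089 for Intermediate and SMC2. With the replicate number as a block, more genes were called in every comparison, such as 4594 against 4218 in Intermediate minus Progenitor. The labels of same-numbered libraries share a prefix across the populations. The reported p-values leave any such pairing out, and the replicate block was run as an alternative only. Alternatives were other scalings and filters, DESeq2 1.42.0, a fit of the compared groups only, the replicate block, a fold minimum of 2 and the omission of each library.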

Additional observations from a re-analysis of the deposited data

How the results depend on the processing

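No member's called difference changed sign under any alternative run. Of the member counts, 2 moved by more than 1.5 times. Of the 14 members higher in Intermediate than in Progenitor, 9 passed when a change of at least 2-fold was also required. Leaving out each library in turn gave 6 to 10 members higher in SMC2 than in Intermediate (10 with all libraries, 6 without Intermediate replicate 2) and 10 to 14 higher in Intermediate than in Progenitor. The other member counts moved by less. Over all genes, 4218 were called in Intermediate minus Progenitor and 2771 without Intermediate replicate 2. The genes called higher there numbered 2419, against 1593 with upper-quartile factors and 1600 without SMC2 replicate 2. Upper-quartile factors moved the median log2 difference of all genes from 0.08 to -0.08 in that comparison and from 0.00 to -0.19 in SMC1 minus Progenitor. With the replicate number as a block, 14 members were higher and 7 lower in Intermediate minus Progenitor. Rnf43 was the added call. Of 287 differences of members, 280 kept their side of the threshold under the block, 278 with upper-quartile factors and 284 with median-of-ratios factors, and DESeq2 kept 281 of the 285 it could test. The lowest members rest on few counts (Axin2 had 9 to 32 per library). Calls changed when a library was left out among low members (Wnt6, Fzd9, Fzd10, Dkk1) and abundant ones (Fzd4, Lrp6, Sfrp2, Dkk3) alike, and the cause was not tested.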

Other observations

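Of the 9 Wnt ligands outside the members, 1 had enough counts to be tested, Wnt9b, which averaged at most 0.911 CPM and was not called in any of the 6 pairwise comparisons. The other 8, Wnt1 and Wnt3a among them, had 11 to 83 counts over all 12 libraries. Notum, a secreted Wnt deacylase, had 34 counts in all and Rspo4 had 29.

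Markers of further cell types varied between the populations beside the Wnt genes. The 10 endothelial markers summed to 372 to 498 CPM in SMC1 and to 69.0 to 267 in the other populations. The 8 pericyte markers summed to 3536 to 4330 CPM in SMC1, 2131 to 2879 in SMC2, 1176 to 1233 in Intermediate and 410 to 731 in Progenitor. The 8 Schwann cell markers reached 102 to 206 CPM in SMC2 and 22.6 to 57.3 elsewhere, with Foxd3 at 0 in both stromal populations. The 10 leukocyte markers lay between 98.5 and 247 CPM in 11 libraries and at 609 in 1 SMC1 library, and the 7 B and plasma cell markers between 1.49 and 74.7. Their part in the differences of the Wnt genes was not tested.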
